A study of Sus scrofa with 12 samples.

Results

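The circadian clock genes ARNTL, CLOCK, PER1, PER2, PER3, CRY1, CRY2, NR1D1, NR1D2 and DBP were examined in longissimus dorsi, the loin muscle, of Iberian pigs. Members were the rows of the per-gene count tables whose Ensembl identifier carries one of these 10 symbols. A row was matched for 9 of the 10, among 25880 genes listed, with ARNTL under its current symbol BMAL1. No value is given for PER3. The 12 pigs were castrated males of a closed commercial Iberian population, fattened outdoors on acorns and grass. They had been selected for extreme estimated breeding values for muscle myoglobin, with 6 pigs in the High MB group (2.48 ± 0.0657 mg of myoglobin per g of muscle, SD, n = 6) and 6 in the Low MB group (1.39 ± 0.147 mg/g, SD, n = 6), avoiding full siblings. The labels name no treatment that differed between the groups. The hour of slaughter of each pig is not given in the sources used here. Per the study, the most extreme pigs were of 1 season. Its model of breeding values held combined batches of fattening and slaughter, and the batch of each pig is not given either.

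The clock of mammalian cells is a loop of transcription factors. The proteins of ARNTL and CLOCK bind E-box elements together and activate the PER and CRY genes, whose proteins then inhibit them. The nuclear receptors NR1D1 and NR1D2 (REV-ERB alpha and beta) repress ARNTL, and DBP is an output factor that binds D-box elements. In skeletal muscle the transcripts of these genes change with the time of day, ARNTL out of phase with NR1D1 and DBP, and the loop is linked to fuel choice and to the muscle programme. The design compared High MB with Low MB pigs. The same 12 libraries also give the spread of each clock gene between animals.

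Clock elements were searched in the promoters, since the loop acts through them. In Sscrofa11.1 (RefSeq annotation, 250 bases before to 50 bases after each gene start, both strands), the E-box CACGTG was in the window of 1 of the 9 genes, PER1, and of 7.91% of 19559 annotated genes. The element TAGGTCA, to which ROR and REV-ERB receptors bind, was in the windows of CRY2 and DBP, and of 2.89% of all genes. The D-box TTANGTAA was in 0 of the 9 windows and in 1.83% of all. Variant forms of these elements and regions outside the windows were not searched, so a gene without a match here may still hold such an element. Counted from the gene start, with bases before it negative, the matches begin at position -93 in PER1, -19 in CRY2 and -42 in DBP. They are shown within windows of 30 bases, in the direction of the gene, all 3 genes being on the minus strand, with the match in capitals. None of the 3 matches overlaps another.
PER1 (chr12:53376799-53376828): cggcccctcccgCACGTGgatctgtcgctt
CRY2 (chr2:16620382-16620411): agcggcgcgtcaTAGGTCActgggccagct
DBP (chr6:53993069-53993098): attgggcaaatgTAGGTCAgggtcccgcct

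Gene counts summed to between 38914271 and 91318334 per pig, with 5 deep libraries (High MB pigs 4 and 6, Low MB pigs 1, 5 and 6) and 7 standard ones. Levels are given as CPM, counts relative to the gene counts of the library, after TMM scaling. All 9 clock genes had counts in every pig, from 50 for DBP to 17569 for NR1D2. The matched muscle markers ACTA1, CKM, TNNT3 and DES, 4 of 9 on the list, summed to between 37732 and 114585 CPM. In bulk muscle, fewer cells of a type and less RNA per cell cannot be told apart.

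High MB pig 2 stood apart from the other 11 pigs. It was the lowest pig for 6 of the 9 clock genes and the highest for ARNTL and CLOCK. Its summed muscle markers were the lowest, 37732 CPM against at least 64150 CPM in the others, and its 3 immune markers (PTPRC, CD68 and CD163) summed to 46.1 CPM against at most 19.8 CPM. Over all genes tested, the root mean square difference of its log2 CPM from the median of the other pigs was 0.749, against 0.421 to 0.631 for the other pigs. The part of these features in the clock values was not tested, and values without this pig are given where it moved a result.

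None of the 9 clock genes differed between the groups by the study's limits. With edgeR's quasi-likelihood test, 0 of 9 passed the limits, which are an adjusted p (Benjamini-Hochberg) below 0.10 together with a log2 fold change beyond 0.58 in either direction, and 0 of all 13373 genes tested passed them (0%). One clock gene, CRY2, had an unadjusted p under 0.05, against 1132 of all genes (8.46%). DESeq2 called 29 of 19158 genes (0.151%), none of them a clock gene, and its smallest adjusted p for a clock gene was 0.457, for CRY2. The High MB and Low MB values overlapped for all 9 genes. The median log2 fold change of the 9, High MB over Low MB, was -0.11, with 6 of 9 under 0, and the median of all genes was -0.02, with 53.1% under 0.

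**Figure D1:**
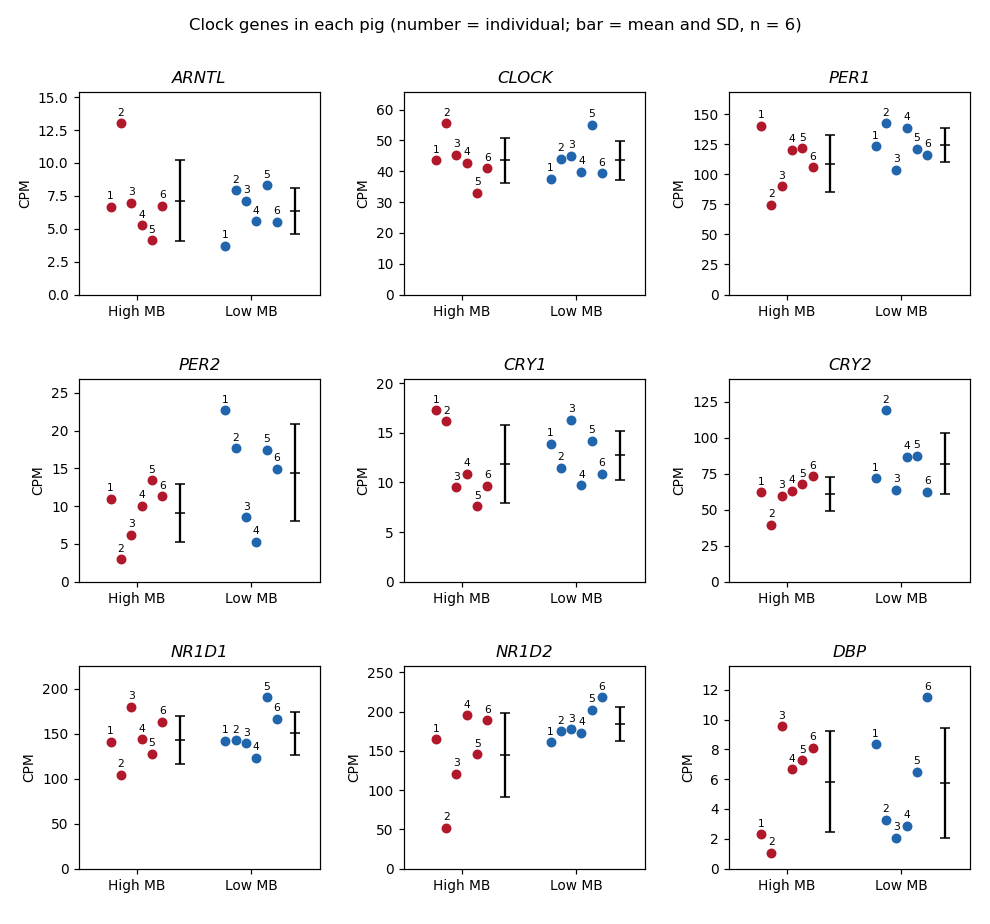
Level of each clock gene in CPM (vertical axes from 0) in the 6 High MB pigs (red) and the 6 Low MB pigs (blue), with the individual's number over its point and the mean and SD beside each group. The groups overlap in all 9 panels, and High MB pig 2 is the lowest point for PER1, PER2, CRY2, NR1D1, NR1D2 and DBP and the highest for ARNTL and CLOCK.

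ARNTL (BMAL1, chr2:45895637-46025174, minus strand) encodes the obligate partner of CLOCK in the activating complex. Its level ranged from 4.11 CPM in High MB pig 5 to 13.0 CPM in pig 2 of that group, with a median of 6.69 CPM, and in the Low MB group from 3.70 CPM in pig 1 to 8.31 CPM in pig 5, with a median of 6.35 CPM. High MB pig 2 alone lay above all Low MB pigs, and the remaining pigs were interleaved. The mean was 7.13 ± 3.09 CPM (SD, n = 6) in High MB and 6.36 ± 1.75 CPM (SD, n = 6) in Low MB, a log2 fold change of 0.17 (95% interval -0.39 to 0.72, edgeR adjusted p = 0.885), and without High MB pig 2 it was -0.08.

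CLOCK (chr8:54793323-54910192, minus strand), the partner of ARNTL in that complex, had the narrowest spread of the 9. Its level ranged from 33.1 to 55.6 CPM in High MB (median 43.2 CPM) and from 37.6 to 55.1 CPM in Low MB (median 41.9 CPM). One pig of each group, High MB pig 2 and Low MB pig 5, was high at about the same level. The group means were both 43.5 CPM (SD 7.27 and 6.37, n = 6 each), with a log2 fold change of 0.00 and an interval of -0.27 to 0.28, or -0.0617 without High MB pig 2. Of the exon bases of CLOCK in RefSeq, 3027 of 6827 are shared with TMEM165 on the opposite strand, and the strand setting of the counting is not given in the sources used here.

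PER1 (chr12:53361863-53376723, minus strand) and PER2 (chr15:137793419-137837854, minus strand) encode the period proteins that inhibit the ARNTL and CLOCK complex, and PER1 is also a target of glucocorticoids. PER1 ranged from 74.9 to 140 CPM in High MB (median 113 CPM) and from 104 to 142 CPM in Low MB (median 122 CPM). PER2 was at a lower level, from 2.93 CPM in pig 2 to 13.4 CPM in pig 5 of High MB (median 10.5 CPM), and from 5.30 CPM in pig 4 to 22.7 CPM in pig 1 of Low MB (median 16.2 CPM). For PER2, 4 of the 6 Low MB pigs lay above every High MB pig, while Low MB pigs 3 and 4 lay among the High MB pigs. The mean of PER2 was 9.13 ± 3.85 CPM (SD, n = 6) in High MB and 14.4 ± 6.43 CPM (SD, n = 6) in Low MB.

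The log2 fold change of PER2 was -0.66, the largest in size of the 9, with a standard error of 0.36 and an interval of -1.44 to 0.12 (unadjusted edgeR p of 0.089, adjusted p of 0.623). An exact two-sided permutation test of its log2 CPM gave p = 0.188. It was -0.74 among deep libraries and -0.32 among standard ones, and its edgeR p was 0.028 (log2 fold change -0.81, adjusted p = 0.649) without Low MB pig 4. For PER1 the log2 fold change was -0.19, with an interval of -0.50 to 0.12 and an adjusted p of 0.731 by edgeR, and it was -0.0835 without High MB pig 2. That of PER2 was -0.45 without that pig.

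CRY1 (chr5:13275265-13429566, plus strand) and CRY2 (chr2:16587101-16620380, minus strand) encode the cryptochromes, the strongest inhibitors of the activating complex. CRY1 ranged from 7.61 to 17.3 CPM in High MB (median 10.3 CPM) and from 9.70 to 16.3 CPM in Low MB (median 12.7 CPM), and its log2 fold change was -0.11 (interval -0.54 to 0.33). With 1 pig left out this value of CRY1 lay between -0.25 (without High MB pig 1) and -0.00814 (without High MB pig 5), with -0.0114 without Low MB pig 3. CRY2 ranged from 39.2 CPM in pig 2 to 73.1 CPM in pig 6 of High MB (median 62.6 CPM), and from 62.3 CPM in pig 6 to 119 CPM in pig 2 of Low MB (median 79.1 CPM). For CRY2, 3 Low MB pigs lay above all High MB pigs and 3 High MB pigs below all Low MB pigs, with the other 6 pigs interleaved.

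The mean of CRY2 was 60.8 ± 11.6 CPM (SD, n = 6) in High MB and 81.8 ± 21.2 CPM (SD, n = 6) in Low MB. Its log2 fold change was -0.43, with a standard error of 0.18 and an interval of -0.80 to -0.05 (unadjusted edgeR p of 0.028, adjusted p of 0.563). An exact two-sided permutation test gave p = 0.050. The difference did not pass the correction over all genes. It was -0.64 among standard libraries and -0.08 among deep ones. The unadjusted edgeR p of CRY2 was 0.0706 without High MB pig 2 (log2 fold change -0.31), 0.111 without Low MB pig 2 (-0.28) and 0.0597 without Low MB pig 4 (-0.39), and it was over 0.05 with upper-quartile scaling (0.0569).

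NR1D1 (chr12:22263549-22274131, plus strand) and NR1D2 (chr13:10756954-10791219, plus strand) encode the REV-ERB receptors, haem-binding repressors of ARNTL. NR1D1 ranged from 104 to 180 CPM in High MB (median 142 CPM) and from 123 to 191 CPM in Low MB (median 142 CPM), with a log2 fold change of -0.07 (interval -0.38 to 0.23), or 0.0245 without High MB pig 2. NR1D2 ranged from 51.6 CPM in pig 2 to 195 CPM in pig 4 of High MB (median 155 CPM), and from 161 to 218 CPM in Low MB (median 176 CPM). High MB pig 2 was far below the other 11 pigs for NR1D2, whose next lowest pig, High MB pig 3, had 121 CPM. The mean of NR1D2 was 145 ± 53.2 CPM (SD, n = 6) in High MB and 185 ± 21.5 CPM (SD, n = 6) in Low MB. Its log2 fold change was -0.35 (interval -0.86 to 0.16, edgeR adjusted p = 0.690) with all pigs, and -0.52 in the standard and 0.03 in the deep libraries. Without High MB pig 2 it was -0.16. NR1D1 shares 2985 of its 7263 exon bases with THRA, which is on the opposite strand.

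DBP (chr6:53986955-53993044, minus strand) encodes the D-box binding protein, an activator whose transcript has one of the widest daily swings in many tissues. In High MB it was at 1.04 CPM in pig 2, 2.29 CPM in pig 1, 6.65 CPM in pig 4, 7.26 CPM in pig 5, 8.11 CPM in pig 6 and 9.55 CPM in pig 3. In Low MB it was at 2.08 CPM in pig 3, 2.86 CPM in pig 4, 3.28 CPM in pig 2, 6.49 CPM in pig 5, 8.33 CPM in pig 1 and 11.5 CPM in pig 6. Each group thus held pigs with low and pigs with high DBP. The 5 lowest pigs were all standard libraries, while all 5 deep libraries were at 6.49 CPM or more, so depth moved with DBP, and its part in these values was not tested. The group means were 5.82 ± 3.38 CPM (SD, n = 6) and 5.76 ± 3.69 CPM (SD, n = 6), with a log2 fold change of 0.01 and a wide interval of -1.06 to 1.08. Among deep libraries alone it was -0.20, among standard libraries 0.89, and without High MB pig 2 it was 0.25.

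**Figure D2:**
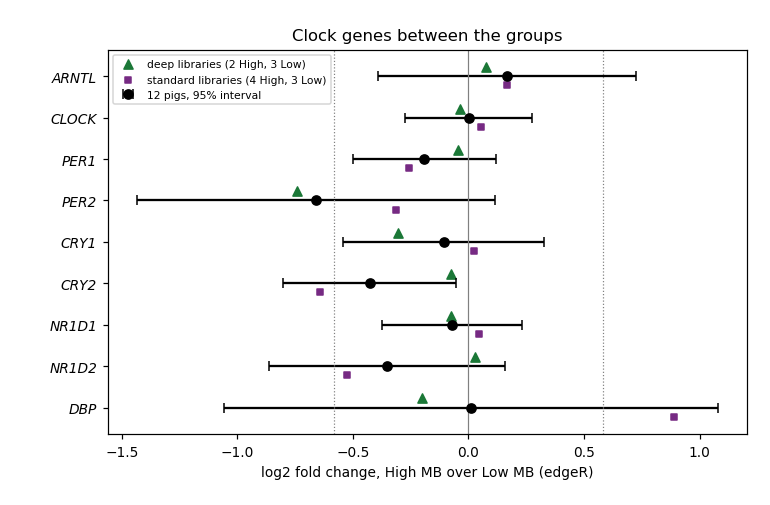
Log2 fold change, High MB over Low MB, of each clock gene by edgeR over 12 pigs with its 95% interval (black), and from the 5 deep (green triangles) and 7 standard libraries (purple squares) alone, with dotted lines at the limit of 0.58. The interval of CRY2, -0.80 to -0.05, is the one that leaves out 0, and its deep-library value is -0.08.

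Per length, as CPM per kilobase of the exons in RefSeq, NR1D2 had the highest level of the 9 (31.5), followed by NR1D1 (20.2), PER1 (19.1), CRY2 (10.9) and CLOCK (6.37). DBP (2.07), ARNTL (2.05) and PER2 (1.54) were lower, and CRY1 was at 0.71 on a long gene model of 17277 exon bases, 2397 of which are shared with MTERF2 on the same strand and 1581 with TMEM263 on the opposite strand. The repressors were thus at both ends of this order. NR1D1 and PER1 differed by less than the SD of either gene between pigs. Along the lower end, from DBP to ARNTL, PER2 and CRY1, each gene's range over pigs overlapped that of its neighbour.

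The clock genes differed widely in their spread between pigs. The SD of log2 CPM with group means removed was 1.12 for DBP, higher than for 97.2% of the genes tested. It was 0.80 for PER2 (91.0% of genes below), 0.52 for NR1D2 (75.3%), 0.50 for ARNTL (73.0%), 0.38 for CRY1 (60.1%) and 0.33 for CRY2 (51.6%). The SDs of PER1 (0.26), NR1D1 (0.25) and CLOCK (0.22) lay under the median of all genes, 0.33. The highest pig was 11.07 times the lowest for DBP, 7.75 times for PER2, 4.23 times for NR1D2, 3.52 times for ARNTL and 3.03 times for CRY2.

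Part of this spread was that of High MB pig 2. Without it, the SD of NR1D2 was 0.23, higher than for 32.5% of genes, and the fold between its highest and lowest pig was 1.81. DBP and PER2 kept wide spreads among the other 11 pigs, with SDs of 0.90 (94.4% of genes below) and 0.65 (86.3%) and folds of 5.53 and 4.28. The fold was 2.24 for ARNTL and 1.99 for CRY2 without that pig. These are descriptions, with no test.

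**Figure D3:**
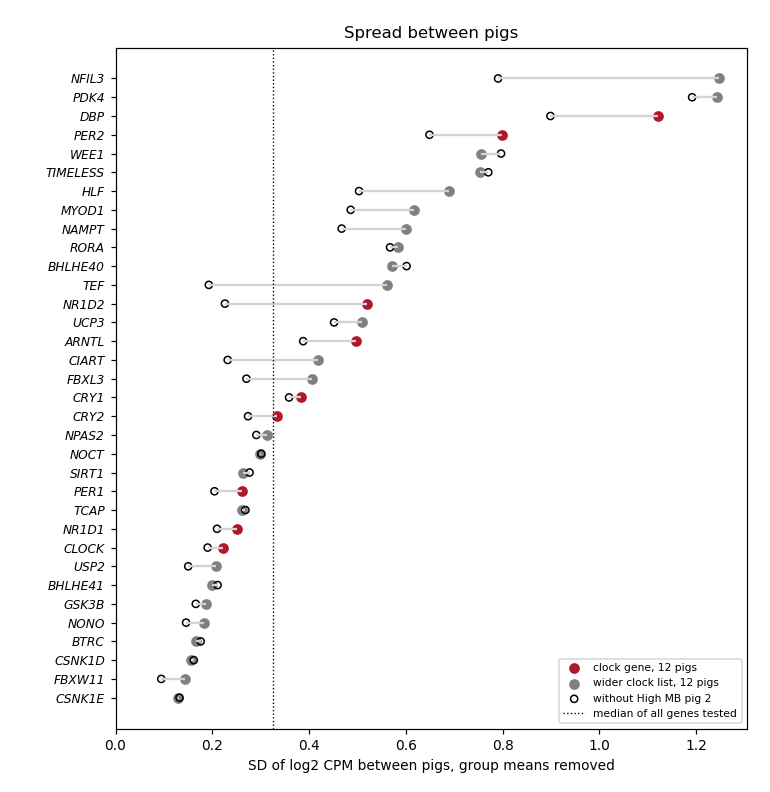
SD of log2 CPM between pigs, group means removed, for the 9 clock genes (red) and 25 of the further clock-related genes (grey), each with its value without High MB pig 2 (open circles), and the median of all genes tested, 0.33, as a dotted line. DBP and PER2 lie far above the line with and without that pig, and NR1D2 lies above it with the pig and below it without.

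ARNTL and CLOCK varied together between pigs. Among the 36 pairs of the 9 genes, this was the single pair with a Benjamini-Hochberg adjusted p under 0.05. With the means of the depth classes removed there were 4 such pairs, the others being PER1 with CRY2, PER1 with NR1D2 and CRY1 with DBP. The permutations for that count ran over all pigs and not within depth classes. Without removing those means, PER1 with NR1D2 had an r of 0.74 but a rho of 0.10. Its r was -0.31 within Low MB and 0.32 without High MB pig 2. CRY1 with DBP had an r of -0.61, a rho of -0.63 and an r of -0.52 without that pig. For ARNTL with CLOCK over 12 pigs, Pearson's r of log2 CPM was 0.89 (permutation p = 0.00032, adjusted p = 0.0115) and Spearman's rho was 0.91 (permutation p = 0.00013, adjusted p = 0.00468). Within High MB r was 0.94 (exact permutation p = 0.025) and within Low MB 0.83 (exact permutation p = 0.036). It was 0.98 in the 7 standard and 0.81 in the 5 deep libraries, the latter too few for a test, 0.87 without the 2 pigs farthest from the median of ARNTL and 0.84 without High MB pig 2.

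Without that adjustment for depth, the other pairs did not pass the correction. Of the 36 pairs, 14 had an unadjusted permutation p under 0.05, 12 with a positive and 2 with a negative r, and 4 by Spearman's rho. Without High MB pig 2, 2 pairs did, and ARNTL with CLOCK was the only one of the 14 among them. The other 13 then had absolute values of r between 0.00873 and 0.56. Within High MB, 10 pairs had an exact p under 0.05, against 2 within Low MB. The High MB count includes pig 2 and was not made without it. Within High MB, PER2 with NR1D2 had an r of 0.92 but a rho of 0.49, while CLOCK with PER2 had -0.89 and -0.94. The sign of r was the same in both groups for 20 of the 36 pairs.

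PER1 with CRY2, both repressors, had an r of 0.77 (permutation p = 0.00403, adjusted p = 0.0725) and a rho of 0.59 (permutation p = 0.049, adjusted p = 0.372). Its r was 0.73 within High MB and 0.83 within Low MB, 0.82 in the 7 standard and 0.08 in the 5 deep libraries, 0.50 without the 2 pigs farthest from the median of PER1 and 0.56 without High MB pig 2. NR1D1 with DBP had an r of 0.72 (permutation p = 0.00743, adjusted p = 0.0892) and a rho of 0.66 (permutation p = 0.0231, adjusted p = 0.372). Its r was 0.80 within High MB and 0.62 within Low MB, 0.72 in the 7 standard and -0.06 in the 5 deep libraries, 0.60 without the 2 pigs farthest from the median of NR1D1 and 0.55 without High MB pig 2.

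ARNTL with DBP, the activator and the output gene of opposite phase, had an r of -0.63 (permutation p = 0.0276, adjusted p = 0.112) and a rho of -0.54 (permutation p = 0.0753, adjusted p = 0.372). Its r was -0.74 within High MB, -0.45 within Low MB, -0.69 in the standard and -0.33 in the deep libraries, and -0.28 without the 2 pigs farthest from the median of ARNTL. Without High MB pig 2 alone it was -0.36 (permutation p = 0.279), so the relation rests largely on that pig. ARNTL with NR1D1, also of opposite phase, had an r of -0.13 (permutation p = 0.697, adjusted p = 0.738) and a rho of 0.07 (permutation p = 0.836, adjusted p = 0.941). Its r was -0.40 within High MB, 0.36 within Low MB, -0.30 in the standard and 0.88 in the deep libraries, 0.55 without the 2 pigs farthest from the median of ARNTL and 0.50 without High MB pig 2. NR1D2 with DBP went from an r of 0.57 with all pigs to -0.00873 without High MB pig 2.

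**Figure D4:**
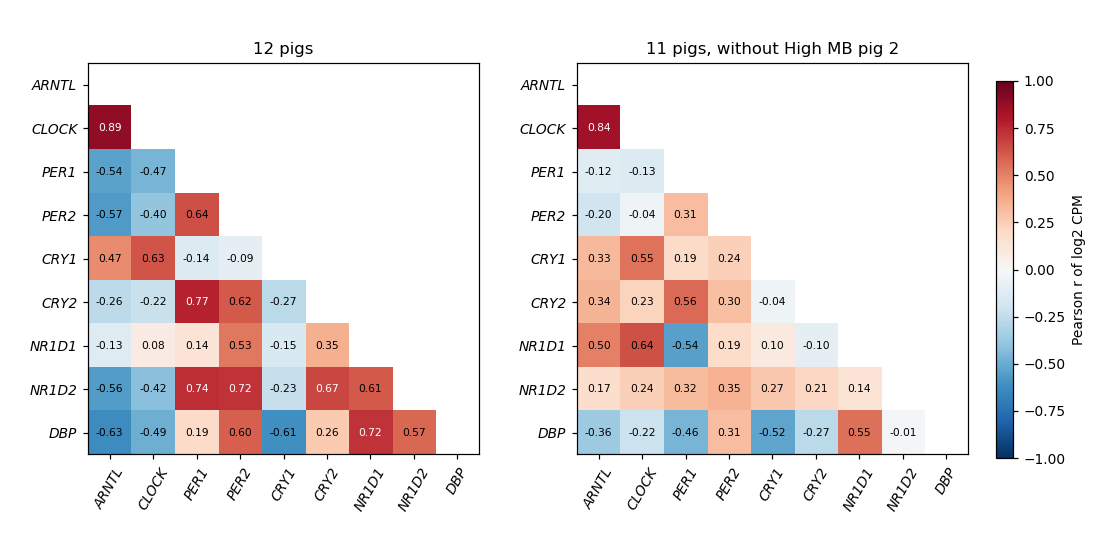
Pearson's r of log2 CPM for each of the 36 pairs of clock genes over 12 pigs (left) and without High MB pig 2 (right), on a scale from -1 (blue) to 1 (red). ARNTL with CLOCK is at 0.89 on the left and 0.84 on the right, while most other strong values on the left are weaker on the right.

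**Figure D5:**
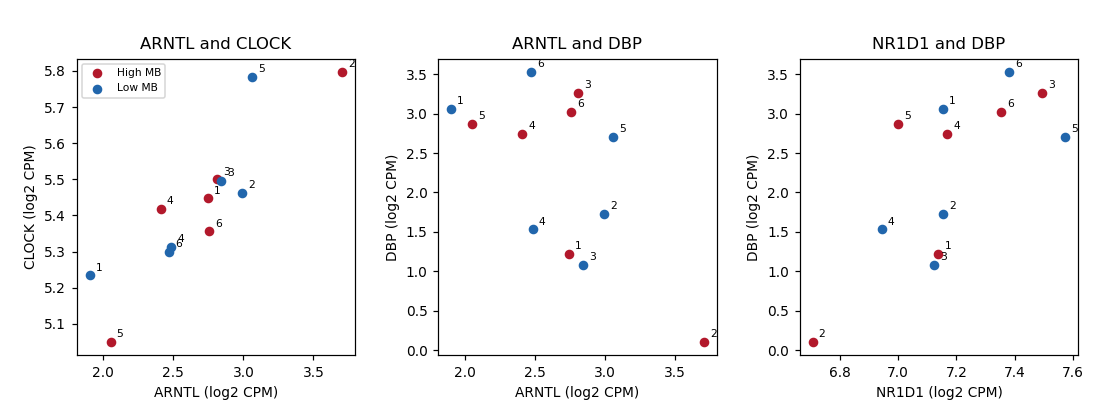
Log2 CPM of CLOCK against ARNTL, DBP against ARNTL and DBP against NR1D1, 1 point per pig with the individual's number, High MB in red and Low MB in blue. CLOCK rises with ARNTL in both groups (r of 0.94 and 0.83), and in the middle panel High MB pig 2, with the highest ARNTL and the lowest DBP, lies away from the other pigs.

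Ratios of counts within a library do not depend on the scaling between pigs. The log2 ratio of DBP to ARNTL ran from -3.65 in High MB pig 2 to 1.17 in Low MB pig 1, a range of 4.82. Among the other 11 pigs the range was 2.95. The log2 ratio of NR1D1 to ARNTL ran from 3.00 to 5.26 and that of PER1 to ARNTL from 2.52 to 5.06, with ranges of 2.26 and 2.54 over 12 pigs and 1.10 and 1.37 without High MB pig 2. High MB pig 2 was the lowest and Low MB pig 1 the highest in all 3 ratios, which share ARNTL as their divisor. The medians of the groups were 0.30 in High MB and -0.66 in Low MB for DBP to ARNTL, and 4.65 and 4.49 for NR1D1 to ARNTL.

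Further genes of the clock and of its muscle outputs were read from a list of 29, of which 28 had a row and 26 passed the filter on low counts. One of the 26 had an unadjusted p under 0.05 and 0 were called, against 8.46% and 0% of all genes. Their median log2 fold change was -0.10, with 18 of 26 under 0. The gene was TIMELESS, which is associated with the clock and with replication forks. Its counts were low, between 2 and 46 per pig, with 0.490 ± 0.143 CPM (SD, n = 6) in High MB and 0.246 ± 0.152 CPM (SD, n = 6) in Low MB. Its log2 fold change was 0.97 (interval 0.02 to 1.92, unadjusted edgeR p of 0.046, adjusted p of 0.578), and it does not enter the fit when at least 10 counts are asked for in every pig.

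Wide spreads on that list were those of NFIL3 (SD 1.25), PDK4 (1.24), WEE1 (0.76), HLF (0.69) and MYOD1 (0.62). NFIL3, which encodes a repressor that competes with DBP for the D-box, ranged from 1.47 CPM in Low MB pig 1 to 34.3 CPM in High MB pig 2. The pig with the highest NFIL3 was thus the pig with the lowest DBP. PDK4, which encodes a kinase that limits glucose oxidation in muscle, ranged from 194 CPM in High MB pig 3 to 2587 CPM in Low MB pig 4. WEE1 encodes a cell-cycle kinase, HLF a D-box factor related to DBP, and MYOD1 the muscle determination factor. Without High MB pig 2 the SD of NFIL3 was 0.79 and that of PDK4 1.19.

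Against DBP over the 12 pigs, r of log2 CPM was 0.86 for HLF and 0.71 for TEF, the factors related to DBP. It was -0.84 for NFIL3, -0.88 for PDK4 and -0.93 for NAMPT, a rate-limiting enzyme of NAD salvage. Without High MB pig 2 these values were 0.75, 0.44, -0.73, -0.91 and -0.90. TEF and NAMPT were chosen after their values were seen. Ranked from the highest r with DBP among genes with a symbol and a mean of at least 1 CPM, HLF was number 47 and TEF 440. From the lowest, NAMPT was number 3, PDK4 35 and NFIL3 89. Other genes of the lists had weaker values: WEE1 -0.31, MYOD1 -0.16, USP2 0.49, CIART 0.39 and PER1 0.19. Without High MB pig 2 these were -0.38, 0.36, 0.03, -0.39 and -0.46. Of the 10078 genes with a symbol and a mean of at least 1 CPM, patterns much like that of DBP were those of TNFRSF19 (r = 0.96), AGAP3 (0.95), KY (0.92) and NXN (0.91), and the most opposite those of ZDHHC9 (-0.97), SMPDL3A (-0.95) and PSME4 (-0.94). For ARNTL they were LMBRD2 (r = 0.92), BBX (0.92), DEGS1 (0.92), APBB2 (0.91) and DEPP1 (0.91), and at the other end GLI4, AXIN1 and TECPR2 (each -0.89). These correlations over 12 pigs are the extremes of a large number and are given with no p, and the pigs share the depth classes described above.

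Clock genes were also compared with muscle myoglobin content inside each group. None of the 18 relations (9 genes in 2 groups of 6) had an exact permutation p under 0.05. Pearson's r lay between -0.63 (PER2 in Low MB) and 0.37 (CRY1 in Low MB), the smallest p was 0.188 and the smallest adjusted p was 0.928.

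PER1, PER2 and NR1D1 were compared with genes that respond to glucocorticoids (5 of 6 listed had a row, among them FKBP5 and KLF9) and with immediate early genes (6 of 6, among them FOS and EGR1). None of the 6 relations passed, with a smallest adjusted p of 0.217. NR1D1 had an r of -0.47 with the glucocorticoid genes (permutation p = 0.123), and -0.24 without High MB pig 2. With the immediate early genes its r was -0.09, and 0.15 without that pig. PER2 had an r of -0.57 with the immediate early genes (permutation p = 0.0507) and a rho of -0.53 (permutation p = 0.0796), with -0.69 within High MB, -0.58 within Low MB, -0.40 without the 2 pigs farthest from the median and -0.51 without High MB pig 2. PER2 with the glucocorticoid genes gave an r of -0.54 (permutation p = 0.0722) and a rho of -0.47 (permutation p = 0.128), with -0.62 within High MB, -0.51 within Low MB, -0.26 without the 2 farthest pigs and -0.32 without High MB pig 2 (permutation p = 0.341). For PER1, itself a glucocorticoid target, r was -0.13 with either list (rho of 0.02 and -0.09), and without High MB pig 2 it was 0.37 with the glucocorticoid genes and 0.15 with the immediate early genes. The summed level of the immediate early genes differed widely between pigs, from 47.4 to 396 CPM in High MB and from 47.8 to 406 CPM in Low MB, and that of the glucocorticoid genes ran from 397 to 1138 CPM and from 301 to 958 CPM.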

How the data were processed

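Longissimus dorsi RNA of 12 pigs was sequenced with 1 library per pig. Per the labels and the study's methods, the authors trimmed paired reads with Trim Galore, mapped these with HISAT2 to the Sscrofa11.1 build and deposited raw counts per gene from HTSeq. The annotation release and strand setting are not given in the sources used here. The per-transcript tables were not used here.

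Tests used edgeR 4.0.16 in R 4.3.3 (TMM, filterByExpr, glmQLFit and glmQLFTest) over all 13373 genes tested, with DESeq2 1.42.0 as an alternative, checked on simulated data. Log2 CPM used a prior count of 2. Of HTSeq's counts to genes, to no feature and as ambiguous, between 47.0% and 48.2% per pig were assigned to genes. The other summary lines were not in this share, and all summary lines were left out of library sizes. Single genes were compared by exact permutation tests (smallest possible p 0.00216), and correlations by 100000 resamples or, within a group, exactly. Alternatives were other size factors, filters, dispersion estimates and limits, depth class, a replicate block and each pig left out. The clock genes, the further list and the markers were chosen with earlier results of these data known. Named genes were the clock genes, those of the further list with an unadjusted p under 0.05 and the 6 with the widest spread, and the 5 highest and 3 lowest correlations with ARNTL and DBP. Some genes chosen by these rules are not reported here. Symbols came from the Ensembl gene names and positions, exon lengths and promoters from RefSeq. Depth differs between pigs, so low counts (DBP, TIMELESS) carry more counting error in standard libraries.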

Additional observations from a re-analysis of the deposited data

Results flagged for a closer look

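Dixon's ratio, the gap of the farthest pig to its neighbour over the range of its group of 6, passed its critical value in 3 of 24 groups examined. Chance flags about 1 in 20 independent groups. These 24 are not independent, since they reuse the same pigs and the ratios reuse the clock genes. Their count can therefore not be read against that rate. High MB pig 2 was the farthest pig in all 3. The ratio was 0.673 for CRY2 in High MB, where that pig had 39.2 CPM and the next lowest 59.6 CPM. It was 0.638 for NR1D2 in High MB, with 51.6 CPM in that pig and 121 CPM in the next. It was 0.714 for the log2 ratio of NR1D1 to ARNTL in High MB, with 3.00 in that pig and 4.40 in the next. The part of its higher immune markers and lower muscle markers in these values was not tested.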

How the results depend on the processing

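No clock gene was called under any alternative run, and DESeq2 with its defaults called 29 genes where edgeR called 0. The number of clock genes at an unadjusted p under 0.05 was 1, but 0 with upper-quartile factors, 0 with the replicate block and from 0 to 1 with 1 pig left out (0 without High MB pig 2 and 0 without Low MB pig 2, while without Low MB pig 4 the gene was PER2 and not CRY2). On the further list it was 1, but 2 with DESeq2, 2 with the depth class as a covariate, 0 with at least 10 counts in every pig, 0 with the replicate block and from 0 to 2 with 1 pig left out. Of all genes at p under 0.05, 713 were higher and 419 lower in High MB, against 914 and 201 with upper-quartile factors. The log2 fold change of CLOCK, 0.00, was -0.0017 without a filter on low counts, -0.0028 with the depth class, -0.0012 with the replicate block and from -0.0617 to 0.0804 with 1 pig left out. That of CRY1 lay between -0.25 and -0.00814 and that of PER1 between -0.28 and -0.0835 with 1 pig left out. That of DBP was -0.0801 with the replicate block and from -0.18 to 0.33 with 1 pig left out, that of ARNTL from -0.0757 to 0.28 and that of NR1D1 from -0.15 to 0.0245. Individual numbers gave no pairing, since same-numbered pigs had correlations of deviations between -0.21 and 0.14, and the replicate block left 957 genes at p under 0.05 instead of 1132. Pairs past the correction were 1, but 4 with depth class means removed (PER1 with CRY2, PER1 with NR1D2 and CRY1 with DBP joined ARNTL with CLOCK) and from 1 to 2 with 1 pig left out. The r of NR1D2 with DBP lay between -0.0087 and 0.68 with 1 pig left out. The cause of these changes was not tested. Low counts limit DBP and TIMELESS.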

Other observations

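The divisor ARNTL was also used for ratios chosen after the values were seen. The log2 ratio of PER2 to ARNTL ran from -2.15 to 2.62 and that of CRY1 to ARNTL from 0.31 to 1.91, again with High MB pig 2 lowest and Low MB pig 1 highest. Without High MB pig 2 the range of the PER2 ratio went from 4.77 to 2.79. The E-box CACGTG was in the promoter windows of 4 of the 25 genes of the further list that were searched (WEE1, TEF, USP2 and SIRT1, chosen by this match). The share over all 19559 annotated genes was 7.91%. TEF, a D-box factor related to DBP, and SIRT1 each held 2 matches, those of TEF beginning at positions -130 and -20 from its gene start on the minus strand, shown here with the match in capitals.
TEF (chr5:7135284-7135313): gccgcaaccccgCACGTGctgtgcctcgtg
TEF (chr5:7135174-7135203): cggctgtggctcCACGTGacccgcggagtt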
